A study of Homo sapiens with 6 samples.

Results

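The proteasome genes were the table lines whose symbol began with PSMA, PSMB, PSMC, PSMD, PSME, PSMF or PSMG followed by a number. There were 50 such lines with 48 distinct symbols, of 57773 genes in the deposited table. A filter on low counts kept 44 of them for testing, of 17805 genes tested in all. The proteasome is the protease that degrades proteins tagged with ubiquitin. Its 20S core is a barrel of outer alpha rings, which gate the entrance, and inner beta rings, which hold the active sites. The 19S cap on either end has a base with a ring of ATPases that unfold the substrate and a lid that removes the ubiquitin chain. Other members open the core without the cap (the PA28 and PA200 activators), bind it as an inhibitor (PI31), or help to build the core and the base and then leave.

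Total RNA of HEK293, a widely used line derived from human embryonic kidney, was sequenced in 3 libraries whose genotype label is a knockdown of TRDMT1 and 3 libraries whose genotype label is control. TRDMT1, also called DNMT2, is a tRNA cytosine methyltransferase, and by its labels the comparison is of transcripts with and without its knockdown. The labels name neither the agent used for the knockdown nor what the control cells received, nor whether the cells were 1 clone. They do not state separate cultures for the 3 libraries of a group either, and a p-value here reflects only how far these libraries spread, which could be technical. Per the labels' protocols, ribosomal RNA was depleted and the RNA was treated with a bisulfite kit before a stranded library kit was used. The sources used here do not say whether the deposited counts come from treated libraries.

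The libraries labelled knockdown held 36455950 to 40088993 counts and those labelled control 24776040 to 26802182. TRDMT1 had 5.73, 5.76 and 5.73 CPM (counts scaled to the library total and by TMM, a factor per library estimated over all genes) in the libraries labelled knockdown, against 3.76, 4.63 and 2.91 CPM in those labelled control. Its log2 difference was 0.61 ± 0.21 (SE; edgeR, adjusted p = 0.0705), so the targeted gene was not lower in the libraries that carry the knockdown label. On log2(RPKM + 1) the exact two-sided permutation test gave p = 0.1, the smallest that 3 against 3 allows. The table's column headers carry a second set of names that contradicts the sample titles. Every direction below follows the genotype labels, and each would be reversed if the headers were right. Which of the 2 is right was not tested. The libraries labelled control varied more, with a biological coefficient of variation of 31.8% against 5.43% in those labelled knockdown, and control replicate 2 stood apart. Of the 10 HEK293 markers all 10 were tested and 1, LIN28B, was lower (−1.18 ± 0.29, adjusted p = 0.0285). Their summed level was 372 to 386 RPKM (counts scaled by gene length and library total) in the libraries labelled knockdown and 439 to 545 RPKM in those labelled control. VIM, which was not called, made up most of it, and without VIM the sums overlapped, at 145 to 153 RPKM in the libraries labelled knockdown and 88.1 to 176 RPKM in those labelled control. The median log2 fold change of the 10 was −0.10. Of 8 lymphocyte and myeloid markers 7 stayed under 0.5 RPKM in every library. Of the markers tested for other types, EPCAM was lower and KRT5 higher of 4 for mature epithelium, LUM was lower of 4 for fibroblasts, and neither of the 2 for endothelium was called. With composition and length trends removed, as described further on, LIN28B stood at −0.63 (adjusted p = 0.075, edgeR), EPCAM at −0.79 and LUM at −0.87, and none of the 3 was called, while KRT5 was called at 2.41. KRT5 was near 0 throughout, at 0.16, 0.08 and 0.12 RPKM in the libraries labelled knockdown and 0.03, 0.0 and 0.03 RPKM in those labelled control. LUM did not exceed 0.61 RPKM in any library.

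More proteasome transcripts were lower than higher in the libraries labelled knockdown. Past an adjusted p of 0.05 (edgeR quasi-likelihood test, Benjamini-Hochberg over all 17805 genes), 16 of the 44 tested members fell, or 36.4%, where 14.7% of all tested genes fell. A single member, PSMD5, rose, or 2.27%, where 9.29% of all tested genes rose. The median log2 fold change of the 44 was −0.45, against −0.04 over all tested genes, and 38 of the 44 values were negative. In 24 of 44 all libraries labelled knockdown lay below all those labelled control (26% of all tested genes), in 3 all lay above (23.9% of all), and in 17 the groups overlapped. In bulk RNA, fewer cells of a type and less RNA per cell cannot be told apart. With plain library totals in place of TMM, which moved the median of all genes to 0.13, the members called were 8 lower and 2 higher, and over all genes 1649 lower (9.26%) and 1888 higher (10.6%), in place of 2613 and 1654.

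The counts rest unequally on single libraries. Without control replicate 2 there were 25 lower and 3 higher members (25.6% and 22.9% of all genes), with a median of −0.28, and without control replicate 3 there were 23 and 2 (16.8% and 12.4%). Without control replicate 1 there were 5 lower and 1 higher (7.32% and 3.64% of all genes). Without replicate 1, 2 or 3 of the libraries labelled knockdown there were 3 lower each time, or 6.82% of the members, where 5.12%, 5.43% and 4.96% of all genes were lower, and 1 higher, where 1.87%, 1.94% and 1.71% were. These shares of lower members are near those of all genes. The median of the members in these 3 fits was −0.43, −0.45 and −0.44, against −0.45 with all libraries. It was −0.37 without control replicate 1 and −0.52 without control replicate 3.

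Other tools gave different counts in both the members and all genes. RLE scaling gave 15 lower and 2 higher members (14% and 9.92% of all genes), and DESeq2 16 and 2 (15.3% and 11.7%). With voom and sample quality weights there were 29 and 3 (29.7% and 27.6%). Limma-trend on log2(RPKM + 1) gave 8 and 2 (8.58% and 12.9%). PSMC1, PSMC6 and PSMD5 passed the threshold, each in the same direction, in all 17 alternative fits, and no other member did.

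The rings of the core and the ATPase ring had lower sums in every library labelled knockdown. The 7 alpha genes together averaged 891 ± 20.6 CPM in the libraries labelled knockdown and 1380 ± 183 CPM in those labelled control (SD, n = 3 each), a ratio of 0.645. The 7 constitutive beta genes averaged 1420 ± 25.2 CPM in the libraries labelled knockdown and 2020 ± 349 CPM in those labelled control, a ratio of 0.703. The 6 ATPase genes averaged 969 ± 9.96 CPM in the libraries labelled knockdown and 1350 ± 132 CPM in those labelled control, a ratio of 0.718. The ratio was nearer to 1 for the lid (0.823), the other base genes (0.793) and the base chaperones (0.89), and was 0.994 for the 4 activators and 0.667 for the 4 core assembly chaperones. The sums of the activators and of the base chaperones overlapped between the groups, and those of the other 6 classes did not.

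**Figure D1:**
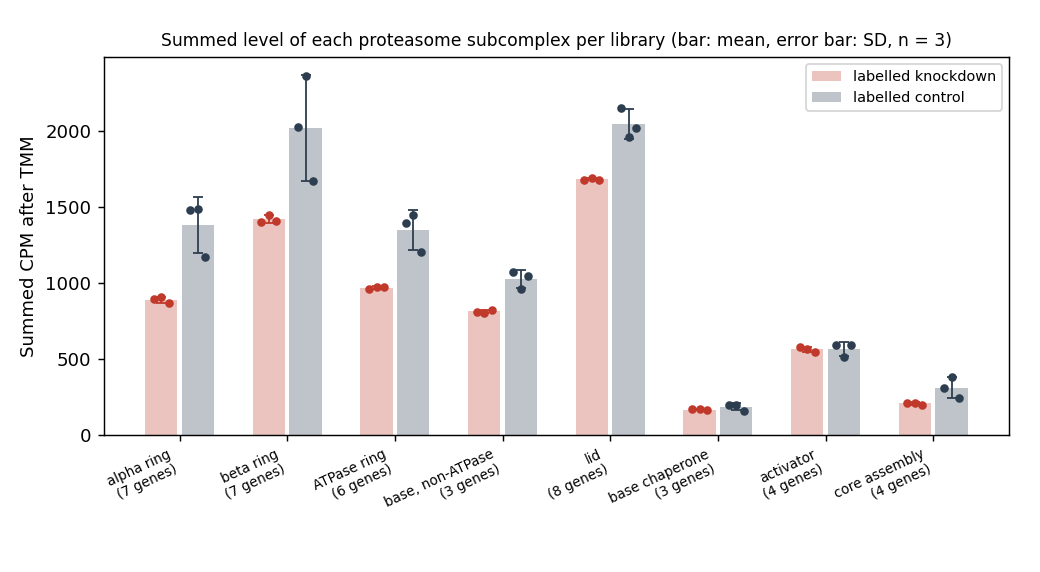
Summed CPM after TMM (vertical axis) of the tested genes of each proteasome subcomplex, with the libraries labelled knockdown left of those labelled control. Bars are means, error bars SD over 3 libraries and points single libraries. The alpha sums were 867.4 to 906.9 CPM in the libraries labelled knockdown and 1170 to 1491 CPM in those labelled control, whereas the activator sums overlapped at 547.6 to 578.2 and 513.5 to 593.6 CPM.

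Alpha subunits, which form the gate of the core, had the largest share of lower members of the subcomplexes, with 5 of 7 and a median of −0.72. PSMA3 (alpha7) had 55.9, 63.9 and 63.4 CPM in the libraries labelled knockdown, against 196, 165 and 165 CPM in those labelled control. That is 2.87-fold lower, with a log2 change of −1.52 ± 0.13 (SE, adjusted p = 0.000678, edgeR), and the groups lay far apart. PSMA4 (alpha3) had 320, 313 and 294 CPM in the libraries labelled knockdown, against 597, 572 and 455 CPM in those labelled control (−0.81 ± 0.15, adjusted p = 0.012). PSMA5 (alpha5) had 106, 107 and 102 CPM in the libraries labelled knockdown, against 180, 201 and 139 CPM in those labelled control (−0.72 ± 0.15, adjusted p = 0.0179). In both genes every library labelled knockdown was below the lowest control.

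PSMA6 (alpha1) had 48.0, 46.8 and 41.2 CPM in the libraries labelled knockdown, against 80.7, 59.4 and 65.3 CPM in those labelled control (log2 −0.60 ± 0.15, adjusted p = 0.0305, edgeR). PSMA2 (alpha2) had 19.7, 18.9 and 18.8 CPM in the libraries labelled knockdown, against 33.2, 54.3 and 24.5 CPM in those labelled control (−0.96 ± 0.28, adjusted p = 0.0469). The controls of PSMA2 spread widely, with replicate 2 the highest, and the groups did not overlap. PSMA1 (alpha6) and PSMA7 (alpha4) did not pass the threshold and their groups overlapped, with log2 changes of −0.32 ± 0.15 and −0.02 ± 0.14. When 1 library was left out, PSMA3 passed each time, with values of −1.56 to −1.40. PSMA4 passed without any 1 control library and missed without any library labelled knockdown (highest adjusted p = 0.0847). PSMA2, PSMA5 and PSMA6 passed without control replicate 2 or 3 and missed without the others (adjusted p up to 0.152).

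Beta subunits, of which PSMB5, PSMB6 and PSMB7 carry the active sites, had 3 lower members of 7 and a median of −0.45. PSMB5, the chymotrypsin-like subunit and main target of the drug bortezomib, had 146, 154 and 148 CPM in the libraries labelled knockdown, against 250, 336 and 205 CPM in those labelled control. Its log2 change was −0.82 ± 0.19 (SE, adjusted p = 0.0229, edgeR), and the groups did not overlap. PSMB6, the caspase-like subunit, had 129, 139 and 137 CPM in the libraries labelled knockdown, against 188, 221 and 144 CPM in those labelled control, and did not pass (−0.45 ± 0.17, adjusted p = 0.0967). PSMB7, the trypsin-like subunit, had 216, 222 and 216 CPM in the libraries labelled knockdown, against 250, 340 and 208 CPM in those labelled control, with overlap (−0.29 ± 0.19, adjusted p = 0.292). Of the catalytic subunits, PSMB5 alone was called, and the differences between the 3 changes were not tested.

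Among the beta subunits without an active site, PSMB1 (beta6) had 271, 274 and 253 CPM in the libraries labelled knockdown, against 515, 533 and 423 CPM in those labelled control (log2 −0.88 ± 0.15, adjusted p = 0.00717, edgeR). PSMB3 (beta3) had 165, 173 and 175 CPM in the libraries labelled knockdown, against 250, 277 and 205 CPM in those labelled control (−0.51 ± 0.14, adjusted p = 0.0406). Both were lower in every library labelled knockdown than in any control. PSMB4 (beta7, −0.44 ± 0.21) and PSMB2 (beta4, 0.03 ± 0.13) did not pass. Leaving out any 1 library labelled knockdown ended all 3 calls of the ring (PSMB1, adjusted p up to 0.062; PSMB5, up to 0.105; PSMB3, up to 0.167). Leaving out control replicate 1 ended those of PSMB3 and PSMB5.

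The immunosubunits replace the catalytic subunits in immune and interferon-treated cells. PSMB10 (beta2i), which takes the place of PSMB7, was scarce, at 3.78, 4.00 and 3.74 CPM in the libraries labelled knockdown, against 2.13, 3.48 and 2.69 CPM in those labelled control. Its log2 change of 0.48 ± 0.22 did not pass (adjusted p = 0.155, edgeR) although the groups did not overlap. Without control replicate 2 it did (0.67, adjusted p = 0.00808), and with chromosome medians removed, as described further on, it stood at −0.07. The log2 ratio of PSMB10 to PSMB7, on RPKM + 1, was higher by 0.51 in the libraries labelled knockdown, at −5.08, −5.07 and −5.10, against −5.77, −5.68 and −5.33 in those labelled control. By exact permutation (two-sided) p was 0.1, the smallest that the design allows. In the GENCODE 29 annotation 34.8% of the PSMB10 exonic bases lie under another gene of the same strand, so its counts are uncertain.

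PSMB8 (beta5i) and PSMB9 (beta1i) had 0 counts in every library, where 3 counts would have been 0.0748 to 0.0823 CPM in the libraries labelled knockdown and 0.112 to 0.121 CPM in those labelled control. No statement about their expression follows. Of 124 protein-coding genes from ABCF1 to RING1, the stretch of chromosome 6 that holds both, 70 (56.5%) were at 0 in all 6 libraries, against 81 of 870 (9.31%) on the rest of the chromosome. TUBB, a tubulin that dividing cells make in quantity, ABCF1, FLOT1, EHMT2, RING1 and the peptide transporter TAP1 were also at 0. How reads of this stretch were counted was not tested. PSMB11 (beta5t), known from the thymic cortex, had 4 counts in replicate 2 labelled knockdown and 0 in every other library. PSMA8, the alpha4 variant of sperm precursors, had 1 count in that same library and 0 in every other one. The second table lines of PSMA1 (0 counts) and PSMA2 (1 to 5 counts) overlap the main gene on the same strand in GENCODE 29 and were not tested either.

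The ATPase ring of the base unfolds substrates and opens the core's gate, and it held the member with the lowest fold change. PSMC6 (Rpt4) had 38.7, 37.9 and 33.6 CPM in the libraries labelled knockdown, against 152, 147 and 120 CPM in those labelled control. It was 3.81-fold lower (log2 −1.93 ± 0.14, SE, adjusted p = 0.000424, edgeR), and its highest value in the libraries labelled knockdown was far under its lowest control. PSMC1 (Rpt2) had 44.4, 42.6 and 44.7 CPM in the libraries labelled knockdown, against 106, 114 and 86.6 CPM in those labelled control. It was 2.33-fold lower (−1.22 ± 0.14, adjusted p = 0.00189), again without overlap. PSMC2 (Rpt1) had 125, 122 and 123 CPM in the libraries labelled knockdown, against 220, 164 and 184 CPM in those labelled control (−0.62 ± 0.14, adjusted p = 0.0201).

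The other ATPases did not pass, with −0.45 ± 0.16 for PSMC5 (Rpt6), −0.26 ± 0.16 for PSMC3 (Rpt5) and −0.11 ± 0.12 for PSMC4 (Rpt3). PSMC6 and PSMC1 passed whichever library was left out, PSMC6 at −2.03 to −1.82 and PSMC1 at −1.33 to −1.13. PSMC2 missed without any 1 library labelled knockdown and without control replicate 1 (adjusted p up to 0.103). The counts of PSMC1 carry a doubt over identity. PSMC1P1, a processed copy on chromosome 3, held 37.2%, 37.2% and 32.1% of the counts of the pair in the libraries labelled knockdown and 34.6%, 26.3% and 35.8% in those labelled control. PSMC1P1 was lower too (−1.0 ± 0.16, adjusted p = 0.00748, edgeR). With composition and length trends removed, as described further on, it was not called (−0.29, adjusted p = 0.379). Summed, the pair had 70.7, 67.8 and 65.9 CPM in the libraries labelled knockdown, against 162, 155 and 135 CPM in those labelled control. A lower sum does not tell which gene of the pair was lower, and how reads were split between them was not tested. In GENCODE 29, 75.8% of the 6161 PSMC1 exonic bases lie opposite NRDE2, which did not pass (−0.33 ± 0.16, adjusted p = 0.166, edgeR). The authors' exonic length for PSMC1 is 3356 bases, so the share of its counted bases opposite NRDE2 is not known.

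**Figure D2:**
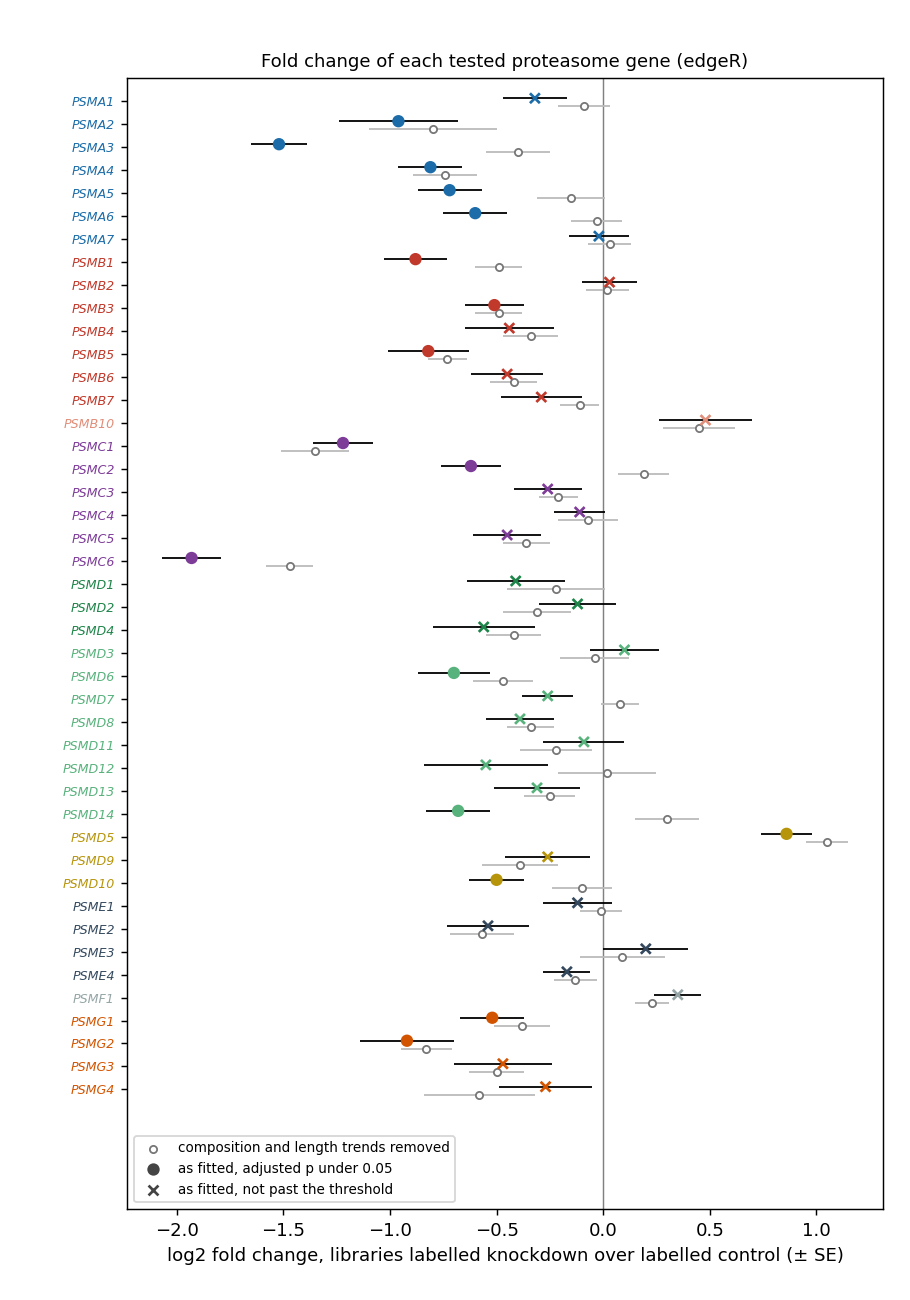
Log2 fold change of each tested proteasome gene, libraries labelled knockdown over libraries labelled control, with its SE (horizontal axis, edgeR), grouped and coloured by subcomplex. Filled circles passed the threshold, crosses did not, and open circles show the fit without the trends in base composition and length. PSMC6 at −1.93 and PSMD5 at 0.86 are the ends of the range.

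The remaining base subunits are scaffolds and a ubiquitin receptor, and none of the 3 was called. PSMD1 (Rpn2, −0.41 ± 0.23) and PSMD2 (Rpn1, −0.12 ± 0.18) overlapped between the groups, with control replicate 2 the lowest of all libraries, at 196 CPM for PSMD1 and 309 CPM for PSMD2. PSMD4 (Rpn10, −0.56 ± 0.24) had its highest value, 453 CPM, in that same library. Without control replicate 2 all 3 were called lower, PSMD1 at −0.64 (adjusted p = 0.000109, edgeR), PSMD2 at −0.28 (adjusted p = 0.0103) and PSMD4 at −0.24 (adjusted p = 0.049).

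The lid had 2 lower members of 8, and its median was −0.35. PSMD14 (Rpn11), the metalloprotease that cuts the ubiquitin chain off, had 108, 106 and 108 CPM in the libraries labelled knockdown, against 203, 146 and 166 CPM in those labelled control (log2 −0.68 ± 0.15, adjusted p = 0.0179, edgeR). PSMD6 (Rpn7), a structural lid subunit, had 109, 103 and 100 CPM in the libraries labelled knockdown, against 198, 130 and 180 CPM in those labelled control (−0.70 ± 0.17, adjusted p = 0.0268). Neither gene overlapped between the groups, and both missed the threshold without control replicate 1 or any 1 library labelled knockdown (adjusted p up to 0.12). The other 6 lid genes ran from −0.55 ± 0.29 for PSMD12 (Rpn5) to 0.10 ± 0.16 for PSMD3 (Rpn3), with PSMD13 (Rpn9) at −0.31 ± 0.20 and PSMD7 (Rpn8) at −0.26 ± 0.12, and none passed. PSMD12 had 77.7, 83.6 and 82.5 CPM in the libraries labelled knockdown, against 151, 67.0 and 138 CPM in those labelled control, and was called at −0.83 (adjusted p = 3.8e-05) without control replicate 2. PSMD8 (−0.25) and PSMD11 (−0.27) were also called lower without that library, whereas in the fit with all libraries they stood at −0.39 and −0.09.

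Chaperones of the base bind the ATPases before the cap is complete. PSMD5 was called higher, PSMD10 lower, and PSMD9 was not called. PSMD5 (S5b) had 48.0, 46.5 and 44.6 CPM in the libraries labelled knockdown, against 26.8, 24.1 and 25.6 CPM in those labelled control. It was 1.82-fold higher (0.86 ± 0.12, SE, adjusted p = 0.00351, edgeR), with both groups tight and apart, and stayed at 0.83 to 0.94 whichever library was left out. PSMD10 (gankyrin) had 84.6, 82.7 and 78.4 CPM in the libraries labelled knockdown, against 129, 118 and 100 CPM in those labelled control (−0.50 ± 0.13, adjusted p = 0.0331). Its groups did not overlap, but it missed the threshold without control replicate 1 or any 1 library labelled knockdown (adjusted p up to 0.154). With composition and length trends removed, as described further on, PSMD10 stood at −0.10 (adjusted p = 0.621, edgeR) and was not called. PSMD9 (p27) did not pass (−0.26 ± 0.20), and in GENCODE 29 other genes of the same strand cover 19.9% of its exonic bases. The antisense transcript PSMD5-AS1 was higher as well (1.08 ± 0.17, adjusted p = 0.00564). In GENCODE 29 no exonic base of PSMD5 lies under another gene on either strand.

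Assembly of the core had 2 lower members of 4 and a median of −0.50. PSMG1 (PAC1) and PSMG2 (PAC2) form a pair that starts the alpha ring. PSMG2 had 50.7, 47.0 and 42.3 CPM in the libraries labelled knockdown, against 79.9, 118 and 66.7 CPM in those labelled control (log2 −0.92 ± 0.22, adjusted p = 0.0255, edgeR). PSMG1 had 88.3, 92.8 and 84.3 CPM in the libraries labelled knockdown, against 144, 133 and 103 CPM in those labelled control (−0.52 ± 0.15, adjusted p = 0.0442). Neither overlapped between the groups. PSMG3 (PAC3, −0.47 ± 0.23) and PSMG4 (PAC4, −0.27 ± 0.22), the other pair, did not pass. PSMG1 and PSMG2 also missed it without control replicate 1 or any 1 library labelled knockdown (adjusted p up to 0.177).

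None of the 4 activators passed. PSME2 (PA28 beta) stood at −0.54 ± 0.19 (adjusted p = 0.0802, edgeR), PSME4 (PA200) at −0.17 ± 0.11, PSME1 (PA28 alpha) at −0.12 ± 0.16 and PSME3 (PA28 gamma, the nuclear form) at 0.20 ± 0.20. Without control replicate 2, PSME2 (−0.33, adjusted p = 0.0258) and PSME4 (−0.21, adjusted p = 0.0428) passed. The log2 ratio of PSME1 plus PSME2 to PSME3, on RPKM + 1, was −0.11, −0.10 and −0.16 in the libraries labelled knockdown and 0.09, 1.03 and −0.22 in those labelled control, with overlap (difference −0.42, exact two-sided permutation p = 0.4). Control replicate 2 set most of that spread. PSMF1 (PI31), which inhibits the core in vitro, had 176, 174 and 173 CPM in the libraries labelled knockdown, against 139, 129 and 142 CPM in those labelled control. Its groups did not overlap, yet its log2 change of 0.35 ± 0.11 stayed above the threshold (adjusted p = 0.0533). It was called higher in 5 of 17 alternative fits, among them the fit without control replicate 2 (0.31, adjusted p = 0.00481) and the one without control replicate 3. With chromosome medians removed, as described further on, PSMF1 stood at 0.05 (adjusted p = 0.756, edgeR). With composition and length trends removed as well it stood at 0.03 (adjusted p = 0.819).

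**Figure D3:**
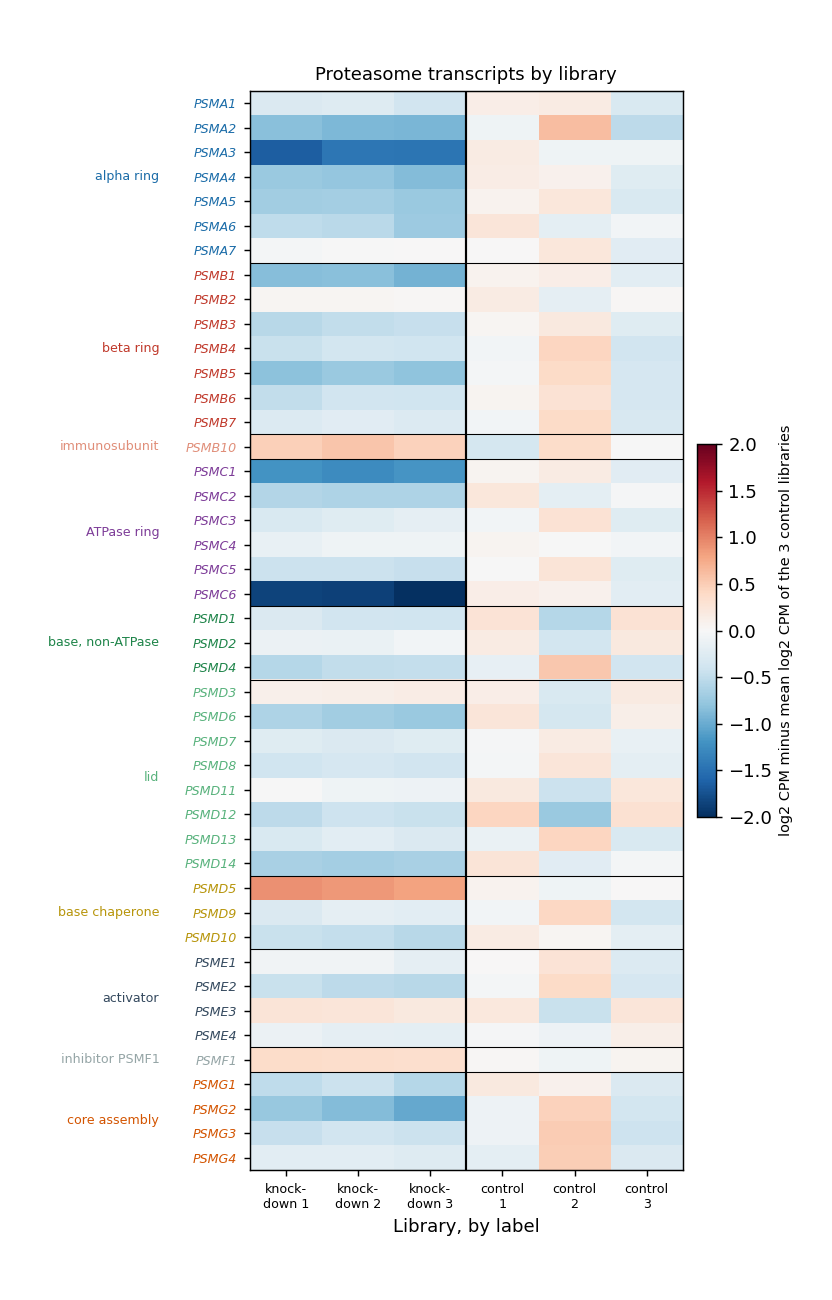
Log2 CPM of each tested proteasome gene in each library, minus the mean log2 CPM of the 3 libraries labelled control, so that blue is below and red above that mean (colour scale in log2 units). Rows are grouped by subcomplex, and the columns are the libraries labelled knockdown, then those labelled control. PSMC6, PSMA3 and PSMC1 are the darkest blue in all 3 libraries labelled knockdown, PSMD5 is the darkest red there, and control replicate 2 departs from the other controls in both directions.

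Levels per length differed widely between subunits that the assembled particle holds in equal number. RPKM is used here for levels between genes, with the authors' exonic lengths, which ran among the tested members from 1179 bases for PSMB3 to 10418 bases for PSMG4. PSMD8 (Rpn12) had the highest mean over the 6 libraries, 177 RPKM, followed by PSMB3 at 174 and PSMB1 at 164 RPKM. In the alpha ring, PSMA7 had 134, 139 and 140 RPKM in the libraries labelled knockdown and 130, 124 and 115 RPKM in those labelled control. At the other end of that ring, PSMA2 had 3.92, 3.77 and 3.76 RPKM in the libraries labelled knockdown and 6.19, 8.27 and 4.72 RPKM in those labelled control. The gap between these genes within any library was far larger than the difference of either gene between the groups. The RPKM of PSMA2 rests on an exonic length of 5332 bases, partly shared with other genes, and that of PSMA7 on 1750 bases. What length and overlap add to the gap was not tested. In the ATPase ring the mean over all libraries was 143 RPKM for PSMC4 and 11.4 RPKM for PSMC6. Spread within a group was small in the libraries labelled knockdown, with a median coefficient of variation of the tested members of 3.44%, against 17.8% in those labelled control.

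Base composition moved with the fold changes, among proteasome genes as among all genes. Over the 44 members, the log2 fold change and the A content of the longest GENCODE 29 transcript had a Pearson r of −0.374 and a Spearman rho of −0.401, beside −0.405 and −0.411 over 17480 genes. These are descriptions across genes of the same 6 libraries, and genes are not independent replicates. All genes were split into 3 equal groups by A content. Among the 13 members in the group richest in A, 9 were lower, with a median of −0.62, where 31.4% of all genes in that group were lower, with a median of −0.40. Among the 21 in the middle group 5 were lower (median −0.29), where 9.05% of all genes were. Among the 10 in the group poorest in A 2 were lower (median −0.38), where 3.5% of all genes were and the median of all genes was 0.21.

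When smooth trends of the counts with GC content, A content and transcript length were removed from each library, 11 members were lower and 1 higher (11.5% and 9.8% of all genes), and the median was −0.24. Of the 17 members called, 9 kept their call in this fit. PSMC6 stood at −1.47 (adjusted p = 0.000914, edgeR), PSMC1 at −1.35 (adjusted p = 0.00372) and PSMD5 at 1.05 (adjusted p = 0.00174). PSMB1, PSMB3, PSMB5, PSMA4, PSMD6 and PSMG2 also kept theirs, at −0.83 to −0.47. A fit with a replicate block added to these trends had 5 lower and 1 higher (6.96% and 5.43% of all genes) and kept 6 of the 17 calls, without PSMB1, PSMB3 and PSMD6. PSMA3, at 32.3% A, moved to −0.40 (adjusted p = 0.109). PSMC2 at 32.0% A and PSMD14 at 33.0% A moved to 0.19 and 0.30, PSMA5 to −0.15, PSMA6 to −0.03 and PSMD10 to −0.10, while PSMA2 stood at −0.80 and PSMG1 at −0.38, and none of these was called. The alpha ring, whose median A content was 28.8%, had a median of −0.15 after removal, whereas the beta ring, at 23.0% A, stood at −0.42 and core assembly, at 22.7% A, at −0.54. PSMB6 (−0.42, adjusted p = 0.0349), PSME2 (−0.57, adjusted p = 0.0375) and PSMG3 (−0.50, adjusted p = 0.0377) were called lower in this fit.

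Chromosome moved with the fold changes too. Of the 7 tested members on chromosome 14, which are PSMA3, PSMA6, PSMB5, PSMC1, PSMC6, PSME1 and PSME2, 5 were lower. Of all protein-coding genes of that chromosome 39.7% were lower, with a median of −0.50 over 468 genes. The members on other chromosomes had 11 lower of 37, or 29.7%, and 1 higher, with a median of −0.39. PSMD5 lies on chromosome 9, where 25.2% of the protein-coding genes were higher and the median was 0.28, and PSMB10 on chromosome 16, where 41.8% were higher and the median was 0.52. With the median of each chromosome's protein-coding genes removed per library, a setting added after seeing the data, 13 members were lower and 1 higher (11.8% and 7% of all genes), and the median was −0.42. PSMC6 then stood at −1.47, PSMA3 at −1.06, PSMC1 at −0.77 and PSMD5 at 0.56, all called, while PSMB5 stood at −0.37 and PSMA6 at −0.13 and, with PSMA2, PSMD6, PSMD10, PSMG1 and PSMG2, were not. PSMA1 (−0.65), PSMC3 (−0.59), PSMD7 (−0.81) and PSMD13 (−0.62) were called lower in this fit.

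With both kinds of trend removed, 9 members were lower and 3 higher (8.76% and 7.69% of all genes), and the median was −0.22. PSMC6 (−1.0, adjusted p = 0.00289, edgeR), PSMC1 (−0.87, adjusted p = 0.016) and PSMD5 (0.79, adjusted p = 0.0056) were called again. PSMA4, PSMB1, PSMB3 and PSMG2 stayed lower, at −0.77 to −0.43, and PSMB7 (−0.37), PSMC3 (−0.48) and PSMD13 (−0.51) were called lower too. PSMA3 stood at 0.08, and PSMA6 (0.45, adjusted p = 0.041) and PSME1 (0.47, adjusted p = 0.0161) were then called higher. The part of base composition and of chromosome in the fold changes was not tested.

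**Figure D4:**
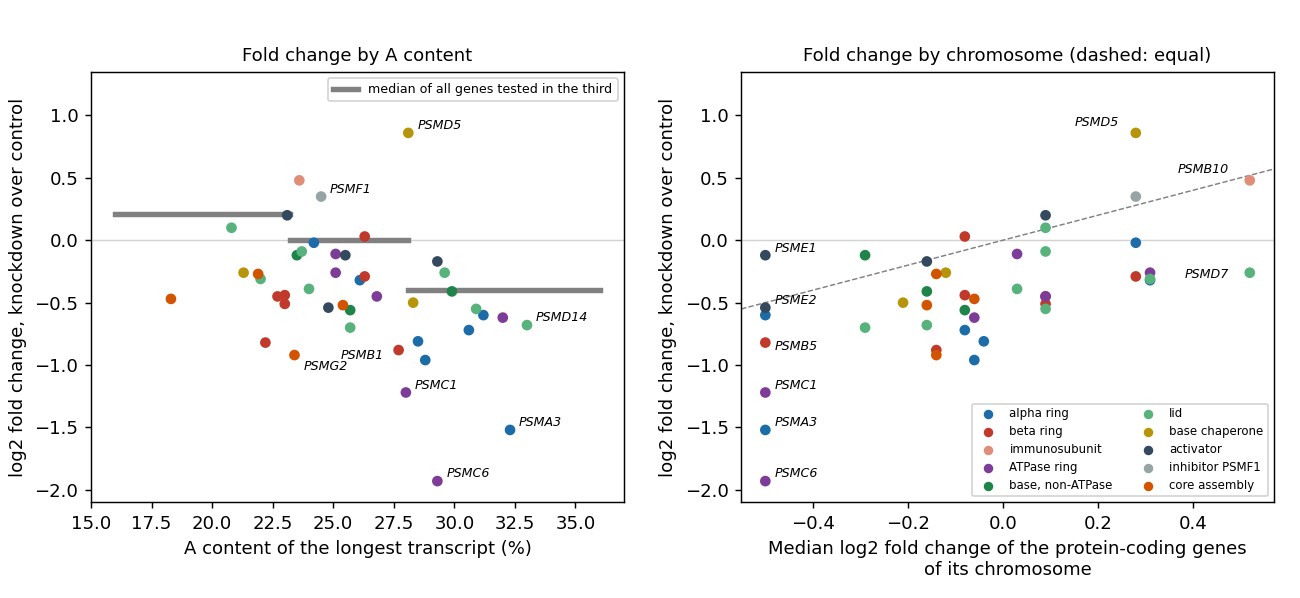
Log2 fold change of each tested proteasome gene, libraries labelled knockdown over libraries labelled control, against the A content of its longest transcript in percent (left) and against the median log2 fold change of the protein-coding genes of its chromosome (right). Points are genes coloured by subcomplex, grey bars on the left are the medians of all genes in each of 3 equal groups by A content (0.21, 0.00 and −0.40), and the dashed line on the right marks equal values. PSMC6, PSMC1 and PSMA3 lie under both, and PSMD5 above both.

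Control replicate 2 departed from the other controls by subcomplex and by transcript length. Its log2 CPM minus the mean of control replicates 1 and 3 had a median of 0.43 over the beta ring and 0.71 over core assembly, and of −0.39 over the lid and −0.54 over the 3 other base genes. It was the lowest control for 15 members and the highest for 24. The difference was −1.11 for PSMD12, −0.84 for PSMD1 and −0.68 for PSME3, against 0.93 for PSMA2 and 0.82 for PSMD4. Against the logarithm of the longest transcript's length it had a Pearson r of −0.484 and a Spearman rho of −0.471 over the 44 members, and −0.296 and −0.359 over 17480 genes, again as descriptions across genes.

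**Figure D5:**
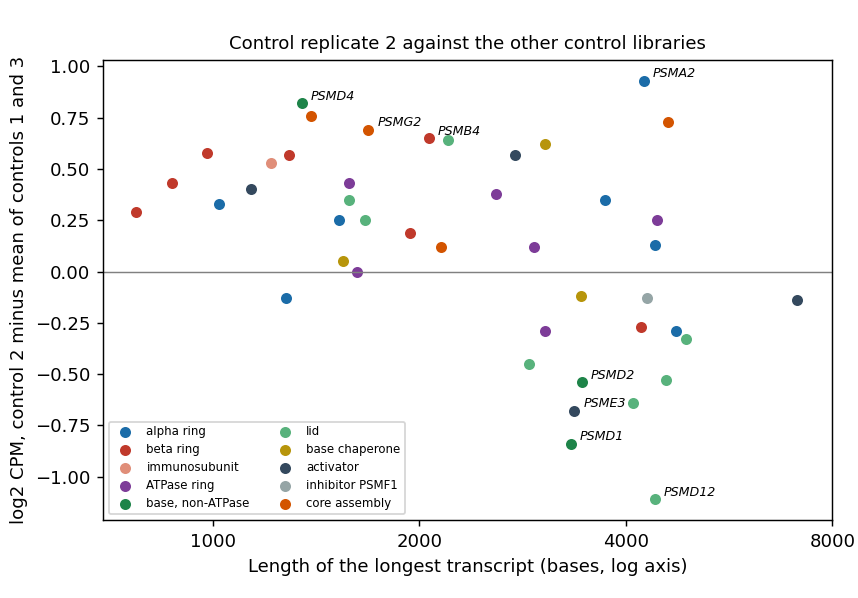
Difference in log2 CPM between control replicate 2 and the mean of control replicates 1 and 3 (vertical axis) against the length of the longest transcript in bases (horizontal log axis) for each tested proteasome gene, coloured by subcomplex. PSMA2, at 0.93, is the highest and PSMD12, at −1.11, the lowest, and among the shorter transcripts PSMD4 lies at 0.82 and PSMA3 at −0.13.

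Genes that work with the proteasome were read from lists of its partners and regulators. The counts called in these lists and in those below stand beside 14.7% lower and 9.29% higher over all tested genes. Several are near these shares, and no list was tested against them. Of 4 core-associated factors, POMP, which the beta ring needs for its assembly, was lower (−1.27 ± 0.17, adjusted p = 0.00389, edgeR), with 66.3, 72.8 and 59.3 CPM in the libraries labelled knockdown, against 172, 180 and 125 CPM in those labelled control, and the median of the list was −0.22. Of 16 tested 26S-associated factors and receptors 3 were lower, none was higher and the median was 0.07. SEM1, the smallest lid subunit, stood at −1.33 ± 0.33 (adjusted p = 0.0303), with 67.3, 63.3 and 61.0 CPM in the libraries labelled knockdown, against 135, 250 and 94.7 CPM in those labelled control. UCHL5, a deubiquitinase of the base, stood at −1.0 ± 0.29 (adjusted p = 0.0459) and TXNL1, a thioredoxin bound to the cap, at −0.60 ± 0.15 (adjusted p = 0.0278). With the composition and length trends removed POMP stood at −0.24, SEM1 at −0.33, UCHL5 at −0.15 and TXNL1 at −0.25, and none was called.

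NFE2L1 is the transcription factor that raises proteasome genes when proteasome activity is low, and its processing runs through the ER degradation machinery. Of 12 genes of this pathway 3 were lower and 3 higher, and the list's median was 0.40, or 0.06 with composition and length trends removed. SYVN1, the ER ubiquitin ligase, rose by 1.71 ± 0.11 (adjusted p = 0.000319, edgeR), with 91.4, 86.8 and 93.5 CPM in the libraries labelled knockdown, against 27.5, 26.1 and 29.4 CPM in those labelled control. Its adaptor SEL1L (0.62 ± 0.11, adjusted p = 0.0108) and the small partner MAFG (0.48 ± 0.13, adjusted p = 0.0421) were higher. NFE2L2, the related oxidative stress factor, fell by 1.41 on the log2 scale (adjusted p = 0.00206), and NGLY1, which removes sugars from NFE2L1, and UFD1, a cofactor of its extraction from the ER, fell by 1.0 (adjusted p = 0.00546) and 0.54 (adjusted p = 0.0278). NFE2L2, NGLY1, UFD1, SYVN1 and SEL1L were also called with the composition and length trends removed, and MAFG was not (0.09).

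Of 5 tested ubiquitin and E1 genes, UBA6 was lower (−1.40 ± 0.29, adjusted p = 0.0167, edgeR) and none was higher, with a median of −0.92. The COP9 signalosome and eIF3 are built on a lid-like plan. Of 10 signalosome genes 4 were lower, with a median of −0.44, and the 3 with the largest change among those called were COPS2 (−2.86 ± 0.23, adjusted p = 0.000588), COPS4 (−0.79 ± 0.13) and COPS5 (−0.62 ± 0.13). Of 13 eIF3 genes 3 were lower, with a median of −0.58, namely EIF3E (−3.0 ± 0.54, adjusted p = 0.0103), EIF3J (−1.03 ± 0.16) and EIF3A (−0.48 ± 0.13). Of 14 AAA unfoldases of other compartments 1 was lower, YME1L1 (−0.44 ± 0.13), and 1 higher, LONP2 (0.82 ± 0.17), with a median of −0.05. Of 11 tested interferon and MHC class I genes 1 was lower, B2M (−0.92 ± 0.27), and 1 higher, ERAP1 (0.69 ± 0.11), with a median of 0.03. Once composition and length trends were taken out, UBA6 (−0.89), COPS2 (−2.14), COPS4 (−0.55), EIF3E (−2.26), LONP2 (0.70) and ERAP1 (0.98) were called again. COPS5 (−0.34), EIF3J (0.06), EIF3A (−0.30), YME1L1 (−0.04) and B2M (−0.24) were not.

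Promoters were searched for 3 motifs in the 250 bases before the annotated start, on both strands, in RefSeq sequence of GRCh38.p14, which is another build than the hg19 of the submitters' processing notes. An entry was found for 42 of the 48 symbols, with 51 promoters in all. TGACNNNGC, the core of the antioxidant response element that NFE2L1 and NFE2L2 bind, was in 13 of 51 (25.5%), against 11.2% of 22199 protein-coding promoters. CCAAT, the box bound by NF-Y, was in 19 of 51 (37.3%), against 32.7% of all, and CCGGAAG, an ETS site, was in 11 of 51 (21.6%), against 10.7% of all. CCAAT was in 11 of 15 genes called lower that had an entry and in 6 of 22 not called, TGACNNNGC in 4 of 15 and 7 of 22, and CCGGAAG in 3 of 15 and 7 of 22. The counts by call are of genes with a match in any of their promoters, whereas the shares before them are of promoters. By gene, CCAAT was in 19 of 42 members. The calls come from these same data, and the share with CCAAT among all genes by call was not computed. The difference between called and uncalled members was not tested. A match is a run of letters, not a shown site. The promoters of PSMC6, PSMC1 and PSMD5, which passed in every fit, and of PSMA3, which had the next lowest fold change after PSMC6, are given 5′ to 3′ on the strand of the gene, with a motif match in capitals. They lie at chr14:52706950-52707199 (+) for PSMC6, chr14:90256303-90256552 (+) for PSMC1, chr14:58244593-58244842 (+) for PSMA3 and chr9:120842923-120843172 (−) for PSMD5.
PSMC6: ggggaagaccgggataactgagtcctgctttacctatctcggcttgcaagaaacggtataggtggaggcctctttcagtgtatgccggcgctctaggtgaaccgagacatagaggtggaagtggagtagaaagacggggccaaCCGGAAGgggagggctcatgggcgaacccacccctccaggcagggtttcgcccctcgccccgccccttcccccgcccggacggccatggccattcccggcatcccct
PSMC1: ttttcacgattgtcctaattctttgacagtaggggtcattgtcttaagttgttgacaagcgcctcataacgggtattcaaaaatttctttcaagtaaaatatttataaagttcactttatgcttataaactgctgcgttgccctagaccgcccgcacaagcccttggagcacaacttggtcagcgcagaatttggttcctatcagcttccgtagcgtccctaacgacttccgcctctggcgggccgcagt
PSMA3: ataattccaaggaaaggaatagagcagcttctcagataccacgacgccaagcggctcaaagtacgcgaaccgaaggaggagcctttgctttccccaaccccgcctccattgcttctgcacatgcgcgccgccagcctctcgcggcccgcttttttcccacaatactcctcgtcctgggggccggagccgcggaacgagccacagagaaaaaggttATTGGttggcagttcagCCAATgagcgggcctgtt
PSMD5: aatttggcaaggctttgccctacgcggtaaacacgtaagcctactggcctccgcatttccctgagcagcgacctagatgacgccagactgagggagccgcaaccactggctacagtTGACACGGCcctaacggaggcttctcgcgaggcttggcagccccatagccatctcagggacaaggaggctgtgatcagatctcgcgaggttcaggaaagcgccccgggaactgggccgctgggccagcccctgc
The PSMC6 promoter held 1 ETS match, the PSMA3 promoter a pair of CCAAT matches on opposite strands, the PSMD5 promoter 1 TGACNNNGC match, and the PSMC1 promoter none of the 3 motifs. PSMC6, PSMC1 and PSMD5 did not share a match in this window.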

How the data were processed

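The authors deposited raw counts by gene in 1 table, with RPKM that they derived from those counts by exonic length and library total (the 2 agreed within 0.006 for 100% of values). The submitters' processing notes name hg19 and, in no stated role, edgeR 3.4.6, DESeq 1.18.0, DESeq2 1.6.3, HTSeq 0.6.1, bcl2fastq 2.17.1.14 and StringTie 1. The aligner, strand setting and annotation are not given in the sources used here. Columns were matched to samples through the names that the sample descriptions repeat, and groups follow the genotype labels.

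The count test was edgeR 4.0.16 under R 4.3.3 (TMM, filterByExpr, robust quasi-likelihood F test), with Benjamini-Hochberg adjustment over all 17805 genes left by the filter and a threshold of 0.05. Log2 changes are libraries labelled knockdown minus libraries labelled control, ± SE. The 2 ratios were tested on log2 of RPKM with a pseudocount of 1 by an exact two-sided permutation test. The fit was also run on simulated counts that had the same dispersion in both groups. That run does not cover the unequal spread of the groups seen here. Limits for genes at 0 are 3 counts and cover counting error only.

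Base composition, chromosome, gene class and overlaps came from GENCODE 29 (98.2% of tested genes matched), for another build than hg19, so the table's coordinates are not given. Its gene models can differ from those that were counted, as for PSMC1. Alternatives were RLE size factors, plain totals, no filter, DESeq2 1.42.0, voom with quality weights and limma-trend on log2(RPKM + 1) (limma 3.58.1), a replicate block, composition and length trends removed (mgcv 1.9.3), chromosome medians removed and each library left out. Every member is accounted for, and per-library values are given for members past the threshold, for the catalytic and immune subunits, and for a few others chosen after their values were seen, among them PSMD12 and PSMF1. Of each gene list, up to 3 called genes per direction are named. The members and lists were chosen with earlier results of these data known.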

Additional observations from a re-analysis of the deposited data

How the results depend on the processing

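Counts of calls moved with the setting. Members called lower, 16 as reported, were 8 with plain library totals and with limma-trend, 29 with voom, 5 with composition and length trends removed and a replicate block, 9 with trends and chromosome medians removed, and 3 to 25 when 1 library was left out. Members called higher, 1 as reported, were 2 with RLE, plain totals, DESeq2 and limma-trend, 3 with voom and with trends and chromosome medians removed, and 1 to 3 when 1 library was left out. Over all genes, calls lower were 1649 with plain totals, 5291 with voom, 1527 with limma-trend, 1239 with trends removed and a block, 1559 with trends and chromosome medians removed, and 886 to 4784 when 1 library was left out. Calls higher were 4923 with voom, 967 with trends removed and a block, and 305 to 4279 when 1 library was left out. The cause was not tested.

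The median of the members was −0.26 with plain totals, −0.23 with limma-trend, −0.24 with trends removed, −0.23 with a block added, −0.22 with trends and chromosome medians removed, and −0.52 to −0.28 when 1 library was left out. TRDMT1 passed with plain totals (0.80, adjusted p = 0.0214, edgeR), DESeq2 (0.65), voom (0.66) and limma-trend (0.25), and ran from 0.45 to 0.79 when 1 library was left out. The PSMB10 to PSMB7 ratio ran from 0.42 to 0.64 and the PSME1 plus PSME2 to PSME3 ratio from −0.68 to −0.06 in those fits. The ratios of PSMB8 to PSMB5 and of PSMB9 to PSMB6 were not run, since PSMB8 and PSMB9 had 0 counts throughout.

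Some values changed sign between fits, both values near 0 in the reported fit and larger ones. Among the members called lower there, PSMA3 (−1.52), PSMD14 (−0.68), PSMC2 (−0.62) and PSMA6 (−0.60) changed sign in fits with trends removed. Among those not called there, PSMD12 (−0.55), PSMB10 (0.48), PSMG4 (−0.27) and PSMD7 (−0.26) changed sign in 1 or more fits. With plain totals the values of changed sign were PSMA7 0.16, PSMC4 0.06, PSMD2 0.02, PSMD11 0.05, PSME1 0.07 and the activator median 0.03. With limma-trend they were PSMA7 0.16, PSMC4 0.07, PSMD2 0.07, PSMD11 0.11, PSME1 0.07, PSME4 0.01 and the activator median 0.04. PSMA7 was 0.00 with RLE, 0.06 without a filter, 0.01 with DESeq2 and 0.02 with voom, where PSMB2 was −0.10 and PSMD3 0.00. With trends removed they were PSMA7 0.03, PSMC2 0.19, PSMD3 −0.04, PSMD7 0.08, PSMD12 0.02 and PSMD14 0.30, and with a block added 0.03, 0.19, −0.02, 0.09, 0.07 and 0.29. With chromosome medians removed they were PSMB10 and its class −0.07, PSMD2 0.16, PSME1 0.33 and the activator median 0.05. With both removed they were PSMA3 0.08, PSMA6 0.45, PSMC2 0.23, PSMC4 0.04, PSMD12 0.07, PSMD14 0.35, PSME1 0.47 and the activator median 0.04. With 1 library left out, PSMA7 ran from −0.13 to 0.10, PSMB2 from −0.06 to 0.15, PSMD3 from −0.03 to 0.19, PSMD11 from −0.27 to 0.03, PSME1 from −0.25 to 0.02 and PSMG4 from −0.42 to 0.02.

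The replicate numbers did not pair the libraries: deviations of same-numbered libraries correlated at −0.04, 0.057 and 0.001. With the replicate block alone, 12 of the 17 called members kept their call. With chromosome medians removed 10 did, and with DESeq2, voom or without control replicate 2 or 3 all 17 did.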
